A study of Homo sapiens with 14 samples.

Results

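PANC-1 cells treated with TGFb1 and valproate together were compared with untreated PANC-1 cells, on 3 and 4 arrays, which are 7 of the 14 arrays analysed here. PANC-1 is an established line from a human pancreatic ductal carcinoma. The arrays were taken by their labels, and every gene of the deposited value table entered the comparison. All cells were grown in 10% serum and starved in 1% serum for 24 h, and the treatment lasted 48 h. The control cells received neither agent. The combined group received TGFb1 at 5 ng/ml with sodium valproate at 2 mM, and a group of 4 arrays received TGFb1 alone at the same dose. A further 3 arrays of cells given TGFb1 with 2.5 µM acriflavine were not compared. They served in the estimate of the spread, the choice of probe sets and the choice of genes bright enough to test. The series' design text calls the replicates biological. No valproate group without TGFb1 was among the arrays, so an effect of valproate alone and an effect that needs both agents cannot be told apart.

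TGFb1 is a secreted cytokine that signals through serine/threonine kinase receptors to SMAD transcription factors, and in carcinoma cells it can drive epithelial-mesenchymal transition (EMT), in which cell junctions are lost and matrix and cytoskeletal genes are induced. Valproate is a short branched fatty acid, used against epilepsy, that inhibits class I histone deacetylases (HDACs). HDAC inhibitors raise histone acetylation and are known for inducing the cell cycle inhibitor CDKN1A and slowing division.

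With both agents 1842 of 10877 tested genes rose against control (16.9%) and 2150 fell (19.8%) in limma's test at an adjusted p of 0.05. Most tested SMAD feedback genes rose (21 of 30), as did 13 of 24 collagen genes and 15 of 27 integrin and actin genes. Most tested genes of mitosis (58 of 64) and DNA replication (43 of 51) fell, as did 27 of 36 interferon-stimulated genes. The differences ran from a rise of 4.35 to -3.11 on the log2 scale, where 1 is a doubling, with a median of -0.02 over all tested genes. At least 2-fold differences were seen in 408 genes that rose and 230 that fell. All 3 valproate arrays lay above all 4 control arrays for 2372 genes (21.8%) and below them for 2892 (26.6%). Against TGFb1 alone, 1643 genes rose (15.1%) and 1759 fell (16.2%) with valproate. TGFb1 alone against control raised 913 genes (8.39%) and lowered 1084 (9.97%). With the replicate number as a block these last counts were 1432 and 1716, and without TGFb1 replicate 4 the second was 1832. These 3 comparisons share arrays in pairs, so their values are given side by side below and no overlap between them is read as a result.

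The array medians ran from 7.20 to 7.25 log2 units. The valproate arrays lay close together, with an SD from their group mean over the tested genes of 0.0934 to 0.113, while replicate 4 of the control group stood at 0.25, and replicates 2 and 4 of the TGFb1 group at 0.256 and 0.375. Without both replicates 4, 2568 genes rose and 2973 fell against control. Ductal keratins were among the tested genes. The mean level of the 6 measured ductal markers was 11.15 to 11.32 on the control arrays and 11.17 to 11.26 on the valproate arrays. Over the 5 tested it was 12.35 to 12.64 in control and 12.19 to 12.36 with valproate, and 1 of these rose and 2 fell. CDKN2A, which is deleted in PANC-1, lay below the brightness limit, at 6.30 in control and 6.41 with valproate. In bulk RNA fewer cells of a type and less RNA per cell cannot be told apart.

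**Figure D1:**
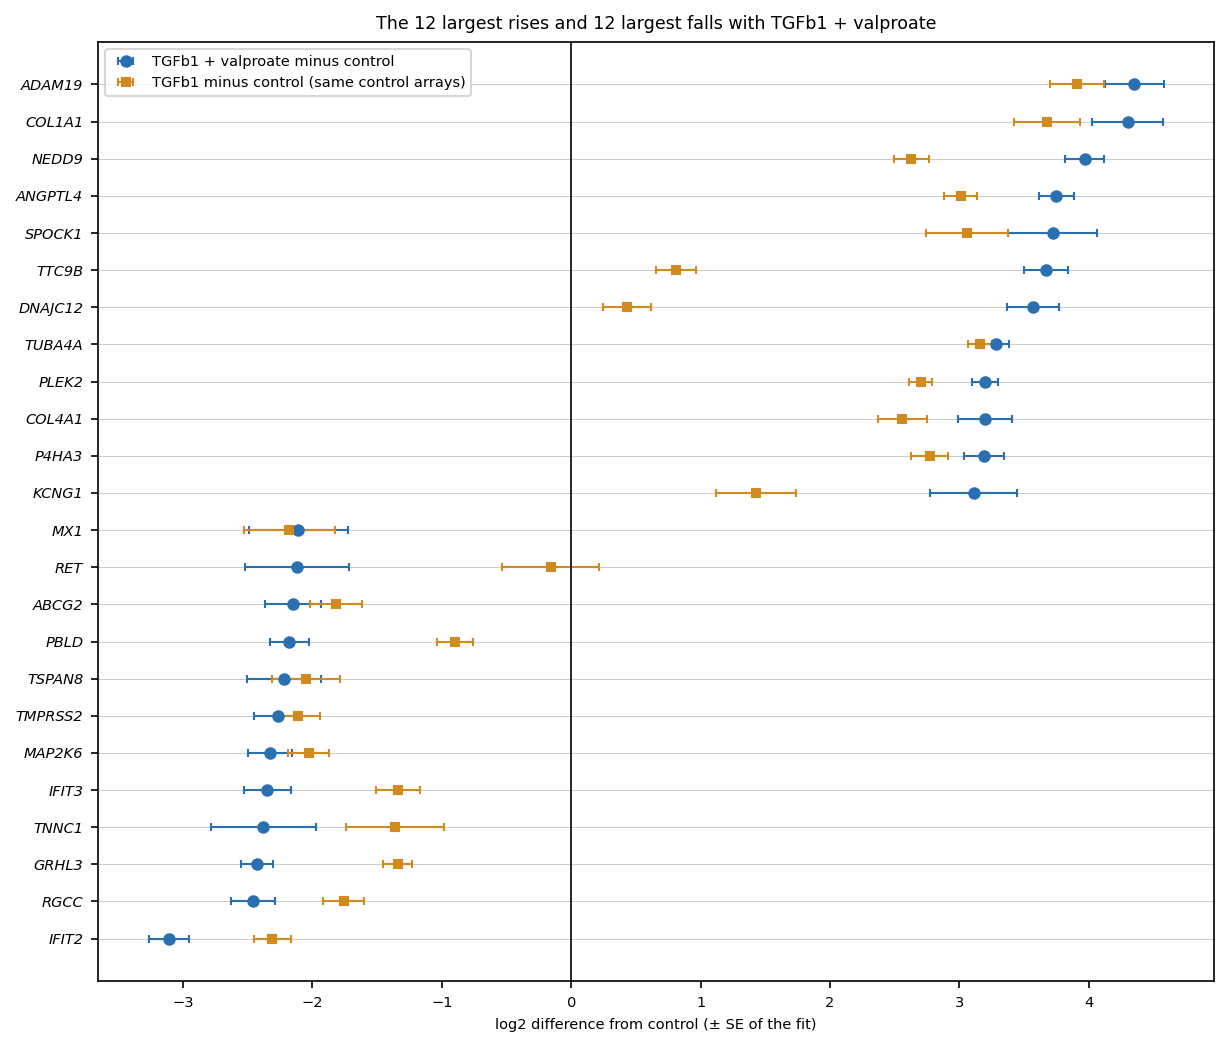
Log2 difference from control of the 12 genes that rose most and the 12 that fell most with TGFb1 and valproate, with the SE of the fit. Blue circles show TGFb1 with valproate and orange squares TGFb1 alone, both against the same 4 control arrays. For DNAJC12, TTC9B and RET the blue and orange symbols stand far apart, while for TUBA4A and MX1 they nearly coincide.

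Genes that TGFb1 signalling is known to induce were above control with both agents. In the list of SMAD feedback and target genes 21 of 30 tested members rose and 0 fell, with a median difference of 1.04 against -0.02 for all genes. With TGFb1 alone 20 rose and 0 fell against control, and valproate against TGFb1 alone raised 5 and lowered 5. Without control replicate 4, 2 members fell against control. NEDD9, a scaffold of focal adhesions, read 5.10, 5.53, 5.40 and 5.07 on the control arrays, 8.07, 8.06, 7.87 and 7.62 with TGFb1 alone, and 9.47, 9.0 and 9.28 with valproate added. The 3 groups did not overlap, and the valproate arrays were the highest. The difference from control was 3.97 ± 0.15 (SE; 15.7-fold, adjusted p = 6.8e-10) and that from TGFb1 alone was 1.35 ± 0.15 (adjusted p = 1.89e-05). ANGPTL4, a secreted inhibitor of lipoprotein lipase, likewise stood higher with both agents (12.75, 12.71 and 12.89) than with TGFb1 alone (11.62 to 12.37) or in control (8.94 to 9.13). Its differences were 3.75 from control and 0.74 from TGFb1 alone.

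Other members showed no further change, or less of one. SMAD7, the inhibitory SMAD, rose by 1.29 ± 0.119 against control (adjusted p = 2.21e-06) and differed from TGFb1 alone by -0.03 ± 0.119 (adjusted p = 0.908). NOG, which encodes the BMP antagonist noggin, rose by 2.19 against control and differed from TGFb1 alone by -0.28 (adjusted p = 0.347). IL11, a cytokine singled out after its values were seen, read 7.26, 6.77, 7.12 and 6.0 in control, 9.43, 9.16, 9.29 and 8.18 with TGFb1 alone, and 8.03, 7.74 and 8.04 with both agents. The combined group lay between the others without overlap, with differences of 1.15 ± 0.298 from control (adjusted p = 0.00795) and -1.08 ± 0.298 from TGFb1 alone (adjusted p = 0.0132).

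Among 20 tested ligands, receptors and SMADs, 7 rose and 6 fell. TGFB1 itself rose by 1.45 ± 0.356 and INHBA, the activin A subunit, by 1.35. INHBB, the activin B subunit, fell from 10.76, 10.79, 10.86 and 10.53 in control to 8.82, 8.55 and 8.64, with TGFb1 alone lower still at 7.71, 7.92, 7.82 and 8.08. The 3 groups did not overlap. Its difference was -2.07 ± 0.106 from control (adjusted p = 1.13e-08) and 0.79 from TGFb1 alone (adjusted p = 8.42e-05). TGFBR3, the co-receptor betaglycan, fell by 1.01 against control. SMAD2, SMAD3 and SMAD4, the transducers of the signal, which were singled out after their values were seen, fell, with differences of -0.56, -0.37 and -0.44.

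Collagen genes made up part of the largest rises. COL1A1, which encodes the alpha 1 chain of type I collagen, read 8.61, 8.73, 8.72 and 7.85 on the control arrays and 12.80, 12.70 and 12.83 with both agents. With TGFb1 alone it read 12.45, 12.48, 12.46 and 11.24. All valproate arrays were above every array of the other groups, and the control arrays were far below. The difference from control was 4.30 ± 0.275 (19.7-fold, adjusted p = 7.25e-08), while that from TGFb1 alone, 0.62 ± 0.275, did not pass (adjusted p = 0.107). The 5 probe sets of COL1A1 gave differences from 0.59 to 4.57. ADAM19, a membrane-bound metalloprotease, gave the largest difference of all, with 5.99, 6.29, 6.27 and 6.82 in control against 10.80, 10.59 and 10.70. That is 4.35 ± 0.228 (20.4-fold, adjusted p = 1.33e-08), and 3 of its 4 probe sets moved the same way. With TGFb1 alone the ADAM19 arrays read 9.89 to 10.97 and overlapped the valproate arrays.

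Of 24 tested genes of fibrillar collagens and their processing, 13 rose and 2 fell, with a median of 0.46. P4HA3, a subunit of the prolyl hydroxylase that modifies collagen, rose by 3.19 ± 0.156, COL7A1 of anchoring fibrils by 2.71 ± 0.111 and COL5A1 by 2.45 ± 0.126. Against TGFb1 alone COL7A1 rose by 0.43 (adjusted p = 0.00862), whereas P4HA3 and COL5A1 did not pass (adjusted p = 0.0534 and 0.188). SERPINH1, the collagen chaperone HSP47, which was singled out after its values were seen, went the other way. It read 11.11, 10.87, 11.01 and 11.16 in control, 10.80 to 11.41 with TGFb1 alone, and 10.01, 9.89 and 10.29 with both agents, below every array of the other groups. The difference from control was -0.97 ± 0.139 (adjusted p = 1.02e-04).

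In the basement membrane list 5 of 11 tested members rose and 0 fell. COL4A1 and COL4A2, the widespread type IV collagen chains, rose by 3.20 and 2.73 against control and by 0.63 and 0.66 against TGFb1 alone, all past the threshold. For COL4A1 2 of 3 probe sets rose. HSPG2, the proteoglycan perlecan, rose by 0.48 against control, where its difference with TGFb1 alone was -0.29. Of 27 tested integrin and actin genes 15 rose and 0 fell, with ITGB3, MYO10 and ITGA2 up by 1.73, 1.71 and 1.64. Without both replicates 4, 2 of that list fell. Of 20 tested matrix proteases and inhibitors 10 rose and 3 fell, and 1 fell without control replicate 4, valproate replicate 2 or valproate replicate 3.

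MMP7, the secreted protease matrilysin, was highest in the combined group. It read 7.76, 7.72, 7.71 and 8.52 in control, 8.26, 8.03, 8.50 and 9.01 with TGFb1 alone, and 10.38, 10.60 and 10.53 with both agents. The valproate arrays were above all others, and the control and TGFb1 arrays overlapped. Its difference was 2.58 ± 0.226 from control (5.96-fold, adjusted p = 1.41e-06) and 2.05 ± 0.226 from TGFb1 alone (adjusted p = 1.75e-05), with 3 of 4 probe sets of the same sign. MMP2 rose by 1.76, PLAT, the tissue plasminogen activator, by 1.71, and PLAUR, the urokinase receptor, by 1.65 against control.

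Genes of epithelial junctions fell more often than they rose against control in the fit of all arrays. Of 28 tested genes of epithelial junctions and adhesion, 3 rose (10.7%) and 9 fell (32.1%). Over all tested genes these shares were 16.9% and 19.8%. The median of the list was -0.13, and 7 members rose without both replicates 4. TGFb1 alone lowered 16 and raised 1, and valproate against TGFb1 alone raised 13 and lowered 1. CDH1, the E-cadherin of adherens junctions, read 8.36, 9.06, 8.59 and 9.91 in control, 6.55, 6.59, 6.28 and 6.90 with TGFb1 alone, and 7.42, 6.96 and 7.26 with both agents. The combined arrays lay below every control array and above every TGFb1 array. The difference from control was -1.77 ± 0.28 (3.4-fold lower, adjusted p = 2.47e-04), and the difference of 0.63 from TGFb1 alone did not pass (adjusted p = 0.104). EPCAM, an epithelial adhesion molecule, fell by 0.71 ± 0.158 against control (adjusted p = 0.00306) and was 0.67 above TGFb1 alone (adjusted p = 0.00547). PPL, the cornified envelope and desmosome protein periplakin, fell by 1.33 against control and was 0.70 above TGFb1 alone.

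Some epithelial genes were above control. DSG2, a desmosomal cadherin, rose by 1.05 and ST14, the membrane protease matriptase, by 0.99. SPINT1, an inhibitor of matriptase that was singled out after its values were seen, read 9.62, 9.87, 9.66 and 10.10 in control, 8.69, 8.75, 8.69 and 8.27 with TGFb1 alone and 10.53, 10.44 and 10.69 with both agents. Its 3 groups did not overlap, with TGFb1 alone lowest and both agents highest. The difference from control was 0.74 ± 0.133 (adjusted p = 6.56e-04). The duct keratin KRT7 rose by 1.22, while KRT8 and KRT18 fell, with differences of -0.68 and -0.70. KRT19 differed by -0.76 ± 0.285 (adjusted p = 0.05) and did not pass, although all valproate arrays were below all control arrays. The call turned with the setting, for KRT19 passed without control replicate 1 (adjusted p = 0.0475) or 3 (adjusted p = 0.0454) and with the replicate block (adjusted p = 0.0273).

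The epithelial transcription factors ELF3 and GRHL3 were among the strongest falls. GRHL3, a grainyhead-like factor of epithelial differentiation, read 9.06, 9.56, 9.23 and 9.13 in control, 8.0, 7.99, 7.66 and 7.98 with TGFb1 alone, and 6.67, 6.95 and 6.84 with both agents. The 3 groups were apart and the combined group was the lowest. Its differences were -2.43 ± 0.122 from control (adjusted p = 1.05e-08) and -1.09 ± 0.122 from TGFb1 alone (adjusted p = 1.99e-05). ELF3 fell by 2.02 ± 0.184 against control and differed by -0.06 from TGFb1 alone (adjusted p = 0.855). In the list of epithelial transcription and splicing factors 5 of 9 tested members fell (55.6%, against 19.8% of all tested genes) and 0 rose. The brightness limit left out 16 of its 25 measured members. With no such limit 6 of 25 fell and 1 rose, and with the dimmest 60% of genes left out 1 of 3 fell. ESRP1, a splicing regulator below the brightness limit and so not tested, had means of 7.50 in control, 6.43 with TGFb1 alone and 7.45 with both agents.

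Of 10 tested EMT transcription factors 4 rose and 0 fell against control, and 1 fell without both replicates 4. SNAI1, the repressor Snail, read 7.47, 7.84, 7.70 and 7.10 in control, 10.02, 10.45, 9.99 and 10.15 with TGFb1 alone, and 9.57, 9.30 and 9.61 with both agents. The combined arrays lay between the other groups. SNAI1 rose by 1.97 ± 0.158 against control (adjusted p = 6.4e-07) and fell by 0.66 ± 0.158 against TGFb1 alone (adjusted p = 0.00605). Its relative SNAI2 lay below the brightness limit, with means of 5.18, 7.03 and 7.94 in control, TGFb1 and combined arrays. Fitted with no brightness limit, SNAI2 differed from control by 2.76 ± 0.119 (adjusted p = 1.23e-09). HMGA2, a chromatin protein, rose by 1.25, the forkhead factor FOXC2 by 0.81 and SOX4, an SRY-related factor, by 0.53, and ZEB1 differed by -0.16 and did not pass (adjusted p = 0.512).

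Of 31 tested mesenchymal and matrix-associated genes 13 rose and 1 fell. CDH2, the N-cadherin, read 9.94, 9.84, 9.90 and 9.93 in control, 10.24 to 10.45 with TGFb1 alone, and 10.96, 11.11 and 10.98 with both agents. The groups were apart, and the rise was 1.11 ± 0.0792 against control (adjusted p = 1.89e-07) and 0.64 against TGFb1 alone (adjusted p = 4.45e-05). FN1, fibronectin, rose by 2.00 ± 0.322 against control (adjusted p = 2.86e-04), and its 8 probe sets gave 0.12 to 3.52. VIM, the intermediate filament vimentin, differed by 0.15 ± 0.0615 and did not pass (adjusted p = 0.0734). TAGLN and CNN1, actin-binding proteins of smooth muscle, did not pass against control. TAGLN read 8.38, 8.09, 8.26 and 8.04 in control, 9.92, 9.60, 9.90 and 8.80 with TGFb1 alone, and 8.19, 8.76 and 8.55 with both agents. The combined arrays overlapped control and lay below every TGFb1 array, with a difference of 0.31 ± 0.221 from control (adjusted p = 0.304) and of -1.06 ± 0.221 from TGFb1 alone (adjusted p = 0.00245). For CNN1 these values were 0.12 (adjusted p = 0.785) and -0.99 (adjusted p = 0.0211).

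**Figure D2:**
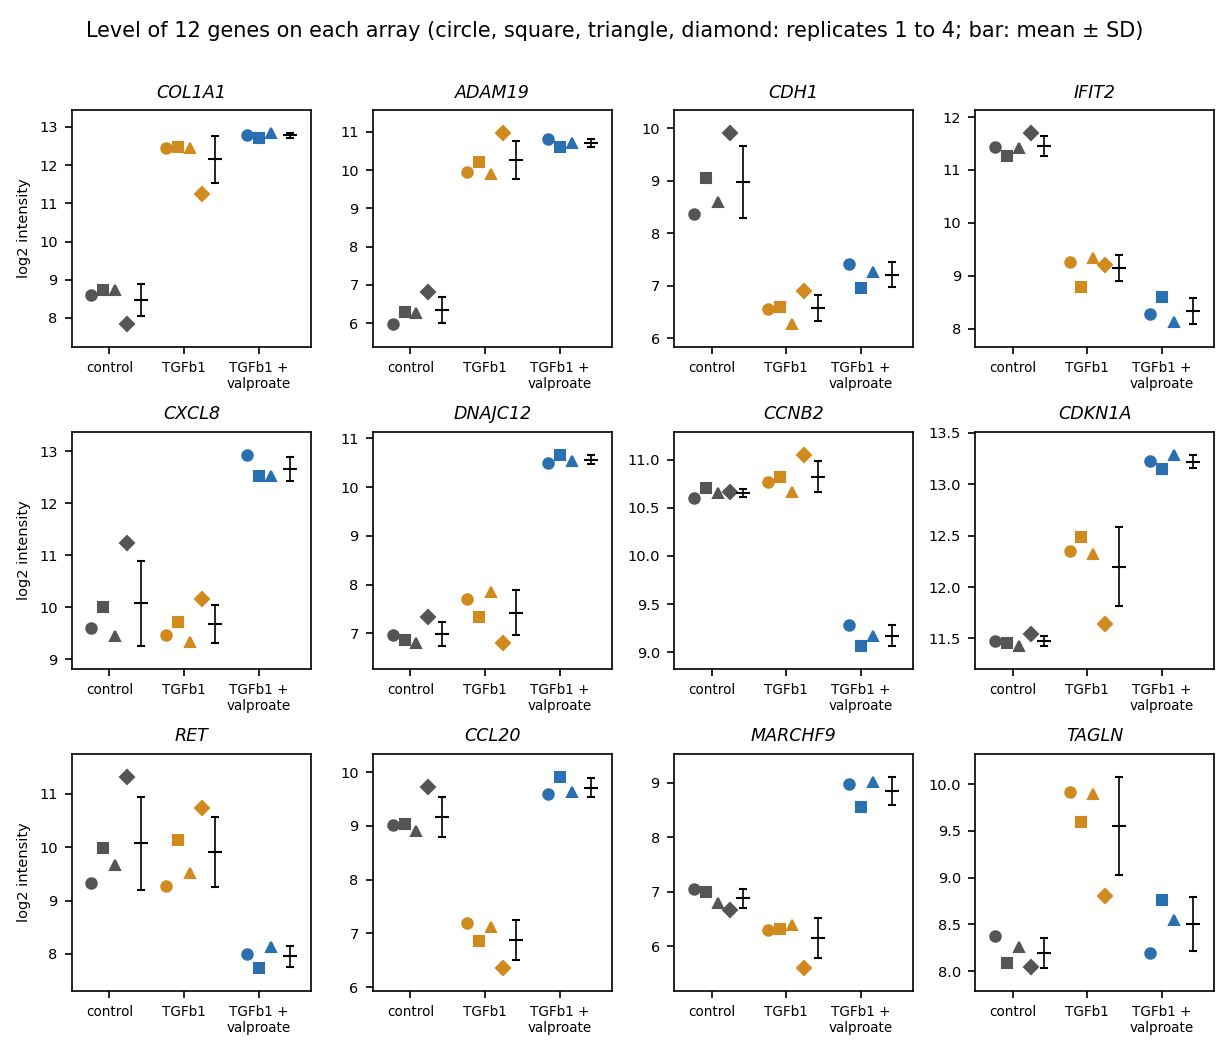
Log2 intensity of 12 genes on every control, TGFb1 and TGFb1 plus valproate array. Each symbol is an array, its shape gives the replicate number, and the bar beside it is the group mean with its SD. COL1A1 and ADAM19 are high in both treated groups, CXCL8, DNAJC12 and MARCHF9 in the combined group, and CCL20 is low with TGFb1 alone.

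Interferon-stimulated genes, which encode antiviral proteins and are switched on by STAT and IRF factors, were lower than in control. Of 36 tested members 0 rose and 27 fell, with a median difference of -0.81. With TGFb1 alone 25 fell and 0 rose against control, and valproate against TGFb1 alone raised 4 and lowered 5. IFIT2, an RNA-binding antiviral protein, read 11.43, 11.26, 11.41 and 11.70 in control, 9.26, 8.78, 9.34 and 9.21 with TGFb1 alone, and 8.28, 8.60 and 8.13 with both agents. The 3 groups did not overlap and the combined group was the lowest. This was the largest fall, -3.11 ± 0.157 from control (8.66-fold lower, adjusted p = 1.06e-08), with -0.81 from TGFb1 alone (adjusted p = 0.00147). IFIT3, its partner, differed by -2.35 ± 0.183 from control and by -1.0 ± 0.183 from TGFb1 alone, and both falls passed. IFIT1, a sensor of foreign RNA caps, fell by 1.85 against control and differed by -0.25 from TGFb1 alone (adjusted p = 0.483).

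Promoters of this list were searched for TTTC followed by any 2 bases and TTTC again, the core of the interferon-stimulated response element (ISRE), on both strands from 250 bases before to 50 after the start. The first RefSeq promoter of each gene was used (GRCh38.p14). It matched in 21 of 28 tested members with an entry (75%) and in 15 of the 21 that fell and had one (71.4%), against 3.65% of 27305 promoters. The 250 bases before the start of IFIT3 (chr10:89327747-89327996, plus strand) and IFIT1 (chr10:89392373-89392622, plus strand) are shown because these genes are among the largest falls of the list and each holds 2 matches, printed in capitals.
IFIT3: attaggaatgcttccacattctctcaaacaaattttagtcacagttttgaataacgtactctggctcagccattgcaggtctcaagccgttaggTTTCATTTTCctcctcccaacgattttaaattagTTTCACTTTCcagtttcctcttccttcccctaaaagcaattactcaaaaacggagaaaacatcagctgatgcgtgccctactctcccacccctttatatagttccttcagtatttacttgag
IFIT1: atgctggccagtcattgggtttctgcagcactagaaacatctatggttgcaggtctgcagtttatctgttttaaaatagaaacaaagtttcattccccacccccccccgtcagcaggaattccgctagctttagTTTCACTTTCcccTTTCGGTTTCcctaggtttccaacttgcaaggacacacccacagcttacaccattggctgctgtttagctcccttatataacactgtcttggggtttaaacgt
The matches in IFIT1 are 3 bases apart. A match is a description of these letters and not a site shown to be bound.

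The control arrays themselves differed in this list. The mean of the tested members was 9.36 to 9.56 on control arrays 1 to 3 and 10.20 on control array 4, against 8.75 to 8.79 on the valproate arrays. MX1, a dynamin-like antiviral GTPase, read 8.21, 7.78, 7.94 and 9.91 in control, 6.12 to 6.56 with TGFb1 alone, and 6.24, 6.13 and 6.69 with both agents. All combined arrays were below all control arrays, with or without array 4, and overlapped those with TGFb1 alone. MX1 fell by 2.11 ± 0.381 against control (adjusted p = 6.7e-04). Leaving out each control or valproate array in turn, 23 to 28 members of the list fell and 0 to 2 rose, with the 2 rises without control replicate 4. BST2, the virion-tethering protein tetherin, which was singled out after its values were seen, was an exception among the members. It read 8.54, 8.10, 8.26 and 9.51 in control, 6.94 to 8.06 with TGFb1 alone, and 9.46, 9.14 and 9.30 with both agents. The combined arrays lay below control array 4 and above the other control arrays, with a difference of 0.70 from control (adjusted p = 0.0834) that was 1.00 without control replicate 4 (adjusted p = 0.00373). They were above TGFb1 alone by 1.90 ± 0.298 (adjusted p = 2.9e-04).

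Antigen presentation genes rose and fell, with the falls near the share of all tested genes. Of 23 tested members 7 rose (30.4%) and 5 fell (21.7%) against control, where 16.9% and 19.8% of all tested genes did. Without valproate replicate 1, 4 members rose. Against TGFb1 alone 10 rose and 1 fell. ULBP2, a ligand of the NKG2D receptor of natural killer cells, read 6.45, 5.84, 6.10 and 6.26 in control, 5.97 to 6.18 with TGFb1 alone, and 7.65, 7.69 and 7.32 with both agents. The combined arrays were above all others, by 1.39 ± 0.142 over control (adjusted p = 5.26e-06). HLA-F, a class I molecule whose probe sets may also bind related HLA transcripts, rose by 1.15 ± 0.225. ERAP1, the peptide-trimming protease of the endoplasmic reticulum, and PSMB8, an immunoproteasome subunit, fell, with differences of -0.92 and -0.72.

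CXCL8, the neutrophil chemokine interleukin-8, was high in the combined group. It read 9.60, 10.00, 9.45 and 11.24 in control, 9.47, 9.72, 9.34 and 10.16 with TGFb1 alone, and 12.93, 12.52 and 12.52 with both agents. The combined arrays were above all others, while control and TGFb1 arrays overlapped. The difference was 2.58 ± 0.331 from control (5.99-fold, adjusted p = 4.21e-05) and 2.98 ± 0.331 from TGFb1 alone (adjusted p = 1.85e-05). SERPINA3, the acute-phase protease inhibitor antichymotrypsin, read 9.55, 9.29, 9.54 and 10.33 in control, 9.36 to 9.72 with TGFb1 alone, and 11.83, 12.27 and 12.16 with both agents. The control and TGFb1 arrays overlapped there too, and the difference was 2.41 ± 0.195 from control and 2.54 ± 0.195 from TGFb1 alone. LY96, the TLR4 co-receptor MD-2, rose by 1.58 against control, and CCL5, a T cell chemokine, fell by 1.46.

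Of 30 tested chemokine, cytokine and NF-kB genes 9 rose and 4 fell against control, 1 rose and 12 fell with TGFb1 alone, and 18 rose and 1 fell with valproate against TGFb1 alone. Control array 4 was also high in this list, with a mean of 9.98 against 9.58 to 9.60 on the other control arrays, and without both replicates 4 15 members rose against control. Several of these genes fell with TGFb1 alone and were near control with both agents. CCL20, a chemokine for dendritic and Th17 cells, read 9.01, 9.04, 8.90 and 9.72 in control, 7.19, 6.86, 7.11 and 6.36 with TGFb1 alone, and 9.59, 9.91 and 9.62 with both agents. The combined arrays were above control arrays 1 to 3 and overlapped array 4. The difference of 0.54 ± 0.208 from control did not pass (adjusted p = 0.0558), and it was 0.73 without control replicate 4 (adjusted p = 0.00607).

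CXCL5, a neutrophil chemokine, read 6.85, 7.15, 7.24 and 8.97 in control, 5.15 to 5.61 with TGFb1 alone, and 7.65, 7.90 and 7.64 with both agents. Control array 4 was above the combined arrays and the other control arrays below them. The difference from control was 0.18 ± 0.362 (adjusted p = 0.739), and 0.65 ± 0.137 without control replicate 4 (adjusted p = 0.00238). C3, the central complement component, read 7.72, 7.46, 7.63 and 9.19 in control, 5.60 to 6.68 with TGFb1 alone, and 7.75, 8.07 and 8.03 with both agents. Its difference from control was -0.05 (adjusted p = 0.929), and without both replicates 4 it was 0.35 (adjusted p = 0.0182). PTX3, a pattern-recognition pentraxin, and EREG, an EGF receptor ligand, differed from control by -0.32 and 0.01 and did not pass, and were 1.41 and 1.79 above TGFb1 alone. LCN2, an iron-binding acute-phase protein that was singled out after its values were seen, differed by -1.25 ± 0.219 from control (adjusted p = 5.25e-04) and by 1.60 from TGFb1 alone.

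**Figure D3:**
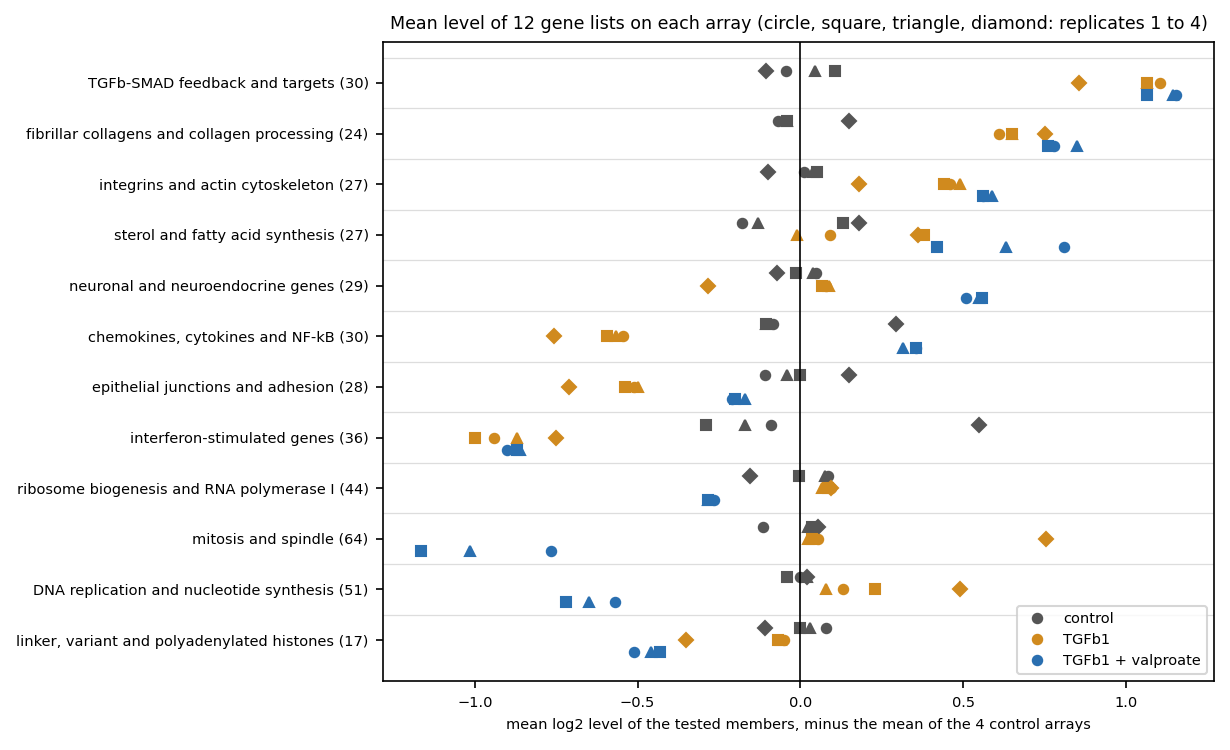
Mean log2 level of the tested members of 12 gene lists on every array, as the difference from the mean of the 4 control arrays. Grey, orange and blue symbols are control, TGFb1 and TGFb1 plus valproate arrays. The mitosis and DNA replication means are below control on all 3 valproate arrays and at or above it with TGFb1 alone, while control array 4 (diamond) is high for interferon-stimulated genes.

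Cell cycle genes fell together in the combined group. Of 64 tested genes of mitosis and the spindle 58 fell and 0 rose, with a median of -1.0, and for 61 of them all valproate arrays were below all control arrays. Of 51 DNA replication and nucleotide synthesis genes 43 fell and 0 rose, with a median of -0.64. Of 30 DNA repair and checkpoint genes 22 fell and 0 rose. TGFb1 alone raised 8 mitosis genes and 16 replication genes against control and lowered 0 of either list. Valproate against TGFb1 alone lowered 60 and 49. Leaving out each array in turn, 46 to 58 mitosis genes and 37 to 43 replication genes fell. The mean over the mitosis genes was 8.51 to 8.91 on the valproate arrays and 9.56 to 9.73 on the control arrays. With TGFb1 alone it was 9.70 to 9.73 on arrays 1 to 3 and 10.43 on array 4.

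CCNB2, cyclin B2 of mitotic entry, read 10.60, 10.71, 10.65 and 10.66 in control, 10.77, 10.82, 10.66 and 11.05 with TGFb1 alone, and 9.28, 9.07 and 9.17 with both agents. Control and TGFb1 arrays overlapped, with the combined arrays below them. Its differences were -1.48 ± 0.091 from control (2.79-fold lower, adjusted p = 5.23e-08) and -1.65 ± 0.091 from TGFb1 alone (adjusted p = 9.98e-08). CDCA8, the chromosomal passenger protein borealin, fell by 1.52 ± 0.134 against control, and NUF2 and NDC80 of the outer kinetochore fell, with differences of -1.43 and -1.41. TK1, thymidine kinase, read 10.92, 10.90, 10.89 and 10.92 in control, 11.03 to 11.29 with TGFb1 alone and 9.61, 9.53 and 9.58 with both agents. All 3 groups were apart, and TK1 fell by 1.34 ± 0.0724 against control (adjusted p = 1.76e-08). TYMS, thymidylate synthase, and MCM4 of the replicative helicase fell, with differences of -1.16 and -1.06. TIMELESS, a fork protection protein, fell by 1.47 ± 0.0707, and BRCA1, a recombination repair protein, fell by 1.24 ± 0.191.

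PLK4, the centriole duplication kinase, fell by 1.51, E2F8, a repressive E2F factor, fell by 1.41 and DEPDC1 fell by 1.52. MKI67, the proliferation marker Ki-67, read 9.33, 9.62, 9.50 and 9.78 in control and 8.87, 8.18 and 8.54 with both agents, without overlap. It fell by 1.03 ± 0.272 (adjusted p = 0.00897), and without valproate replicate 2 the difference was -0.85 (adjusted p = 0.0506). PLK1, a mitotic kinase, differed by -0.34 and did not pass, and without control replicate 4 the difference was -0.59 (adjusted p = 0.012).

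Promoters of the mitosis list were searched for TTTGAA, the core of the cell cycle genes homology region (CHR), and for the CCAAT box, on both strands over the same window. TTTGAA matched in 37 of 54 tested members with an entry (68.5%) and in 32 of the 48 that fell and had one (66.7%), against 15.4% of all promoters. CCAAT matched in 40 of 54 (74.1%) and in 35 of 48 (72.9%), against 35.7%. The 250 bases before the start of CCNB2 (chr15:59104896-59105145, plus strand) and CDCA8 (chr1:37692266-37692515, plus strand) are shown as strong falls that hold both, with the matches in capitals.
CCNB2: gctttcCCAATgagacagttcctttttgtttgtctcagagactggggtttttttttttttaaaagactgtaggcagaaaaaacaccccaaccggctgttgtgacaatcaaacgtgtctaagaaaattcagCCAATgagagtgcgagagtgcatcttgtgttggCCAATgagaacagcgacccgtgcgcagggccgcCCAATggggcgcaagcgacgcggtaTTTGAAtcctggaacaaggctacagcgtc
CDCA8: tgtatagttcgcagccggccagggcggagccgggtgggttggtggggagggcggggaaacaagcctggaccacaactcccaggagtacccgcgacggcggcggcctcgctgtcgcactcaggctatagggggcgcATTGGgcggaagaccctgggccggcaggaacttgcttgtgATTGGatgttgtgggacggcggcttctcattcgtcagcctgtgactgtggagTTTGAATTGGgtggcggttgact
CCNB2 holds 4 CCAAT matches and 1 TTTGAA match. In CDCA8 the 3 CCAAT matches lie on the minus strand, where they read ATTGG, and the last overlaps the TTTGAA match by 1 base.

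CDKN1A, the cyclin-dependent kinase inhibitor p21, was the highest in the combined group. It read 11.48, 11.46, 11.43 and 11.54 in control, 12.35, 12.49, 12.32 and 11.64 with TGFb1 alone, and 13.23, 13.15 and 13.28 with both agents. The 3 groups were apart, and TGFb1 replicate 4 stood near control. The rise was 1.74 ± 0.15 against control (3.35-fold, adjusted p = 1.23e-06) and 1.02 ± 0.15 against TGFb1 alone (adjusted p = 1.76e-04). CDKN1B, which encodes p27, fell by 0.85 ± 0.103 against control and differed by -0.15 from TGFb1 alone (adjusted p = 0.306). CDKN2D, which encodes p19, rose by 0.84 and cyclin D3, CCND3, by 1.17. Of 27 tested BCL2 family and death receptor genes 3 rose (11.1%) and 4 fell (14.8%), both below the shares of all tested genes. Without valproate replicate 1 or 3 these counts were 1 and 2, without valproate replicate 2 or control replicate 4 the falls were 2, and without both replicates 4 the rises were 7. BCL2L11, the pro-apoptotic BIM, fell by 0.92 ± 0.154 (adjusted p = 3.75e-04).

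Genes of histone acetylation were more often lower than higher. Of 33 tested HDAC and acetylation genes 3 rose and 12 fell. CREBBP, the acetyltransferase CBP, read 11.17, 11.24, 11.37 and 11.19 in control, 10.77 to 11.19 with TGFb1 alone, and 10.04, 10.24 and 10.27 with both agents. The combined arrays were below all others. It fell by 1.06 ± 0.106 (adjusted p = 4.45e-06), while the acetyltransferases KAT6B and KAT5 and the deacetylase SIRT1 fell too, with differences of -0.77, -0.78 and -0.95. HDAC2, a class I deacetylase, differed by 0.15 and did not pass. Of 17 tested linker, variant and polyadenylated histone genes 0 rose and 12 fell, with differences of -1.25 for H2BC11 and -1.12 for the linker histone H1-2. Probe sets of histone genes may bind related family members.

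Of 29 tested genes that have been reported as induced by HDAC inhibitors, 10 rose (34.5%) and 7 fell (24.1%) against control. Over all tested genes these shares were 16.9% and 19.8%, so the falls were not far from that share. Against TGFb1 alone 13 rose and 3 fell. Without both replicates 4, 16 rose against control. DNAJC12, an HSP40 co-chaperone, read 6.96, 6.86, 6.80 and 7.33 in control, 7.70, 7.34, 7.84 and 6.81 with TGFb1 alone, and 10.49, 10.66 and 10.54 with both agents. The combined arrays were far above both other groups, which overlapped. The rise was 3.57 ± 0.198 against control (11.9-fold, adjusted p = 2.26e-08) and 3.14 ± 0.198 against TGFb1 alone (adjusted p = 3.31e-07). GLRX, the thiol reductase glutaredoxin, read 6.60, 7.09, 6.91 and 7.19 in control, 6.37 to 7.37 with TGFb1 alone and 9.16, 8.71 and 8.63 with both agents. Again both other groups overlapped below the combined arrays, and GLRX rose by 1.89 ± 0.221. TXNIP, the inhibitor of thioredoxin, which is on the same list, fell by 1.5 ± 0.26 against control. With TGFb1 alone it differed from control by -2.09, and the difference between the treated groups did not pass (0.60, adjusted p = 0.0998).

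Neuronal and neuroendocrine genes rose in part. Of 29 tested members 15 rose and 0 fell, with a median of 0.30, and valproate against TGFb1 alone raised 16 and lowered 0. With the dimmest 20% of genes left out in place of 40%, 24 of 43 rose. SYT1, the calcium sensor of synaptic vesicles, read 7.67, 7.70, 7.84 and 8.04 in control, 8.60, 8.02, 8.64 and 8.51 with TGFb1 alone, and 9.99, 10.31 and 10.01 with both agents. Control and TGFb1 arrays overlapped, and the combined arrays were the highest. It rose by 2.29 ± 0.147 against control (4.89-fold, adjusted p = 7.76e-08) and by 1.66 against TGFb1 alone (adjusted p = 3.5e-06). APLP1, a relative of the amyloid precursor protein, rose by 1.53, RTN2, a reticulon, by 1.40 and CHGB, the granule protein chromogranin B, by 1.36. The microtubule protein gene MAP1B differed by 0.28 and did not pass.

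Among other genes that were higher with both agents than in either other group, TTC9B, which encodes a tetratricopeptide repeat protein, stood out. It read 8.52, 7.93, 8.22 and 7.61 in control, 8.96, 9.02, 8.89 and 8.65 with TGFb1 alone, and 11.77, 11.62 and 11.83 with both agents. The groups were apart, and the rise was 3.67 ± 0.169 against control (12.7-fold, adjusted p = 5.44e-09) and 2.86 ± 0.169 against TGFb1 alone (adjusted p = 2.16e-07). PRSS3, a pancreatic trypsinogen, rose by 3.04 ± 0.132 against control and 2.15 against TGFb1 alone, and STC1, the secreted glycoprotein stanniocalcin 1, by 2.66 and 1.96. MARCHF9, a membrane-bound ubiquitin ligase, read 7.06, 6.99, 6.80 and 6.67 in control, 6.30, 6.32, 6.40 and 5.61 with TGFb1 alone, and 8.97, 8.55 and 9.02 with both agents. TGFb1 alone was the lowest group and the combined group the highest, with no overlap. The rise was 1.97 ± 0.175 against control and 2.69 ± 0.175 against TGFb1 alone. C11orf96 rose by 2.57 against control and SEL1L3 by 1.97.

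RET, the receptor tyrosine kinase for GDNF family ligands, was lower with both agents than in either other group. It read 9.32, 9.98, 9.67 and 11.32 in control, 9.27, 10.14, 9.52 and 10.73 with TGFb1 alone, and 7.99, 7.74 and 8.13 with both agents. The control and TGFb1 arrays overlapped, and replicate 4 was the highest in both. The difference was -2.12 ± 0.402 from control (4.35-fold lower, adjusted p = 9.7e-04) and -1.96 ± 0.402 from TGFb1 alone (adjusted p = 0.00211). Of 27 tested receptor tyrosine kinase and ligand genes 12 rose and 4 fell, and 8 fell without both replicates 4. EFNB2, an ephrin, rose by 1.54, and MERTK, a TAM receptor, fell by 1.21.

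For several of the largest falls the difference from TGFb1 alone did not pass. TMPRSS2, a membrane serine protease, read 10.20, 10.93, 10.40 and 10.70 in control, 8.19, 8.76, 8.18 and 8.66 with TGFb1 alone, and 8.50, 8.04 and 8.32 with both agents. The treated groups overlapped and both were below control. TMPRSS2 fell by 2.27 ± 0.184 against control (4.83-fold lower, adjusted p = 6.7e-07), and its difference from TGFb1 alone was -0.16 ± 0.184 (adjusted p = 0.561). MAP2K6, a kinase upstream of p38, fell by 2.33 ± 0.169 against control, TSPAN8, a tetraspanin, fell by 2.22 ± 0.285 and ABCG2, a drug efflux transporter, fell by 2.15 ± 0.219. Their differences from TGFb1 alone were -0.30, -0.17 and -0.33 and did not pass. TNNC1, a troponin C, fell by 2.38 ± 0.408, and its control array 4 (7.30) was more than 1 log2 unit below the other control arrays (8.48 to 8.64). TUBA4A, an alpha-tubulin, was the matching case among the rises, at 3.28 ± 0.101 against control and 0.12 ± 0.101 against TGFb1 alone (adjusted p = 0.407).

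Sterol and fatty acid synthesis genes, the targets of SREBP factors, rose. Of 27 tested members 17 rose and 0 fell, with a median of 0.66. TGFb1 alone raised 2 and lowered 1 against control, with a median of 0.31. Valproate against TGFb1 alone raised 9 and lowered 0, with a median of 0.42. The list mean was 10.08, 10.39, 10.13 and 10.44 on control arrays 1 to 4. It was 10.35, 10.64, 10.25 and 10.62 on TGFb1 arrays 1 to 4, each above the control array of the same number. MSMO1, a sterol demethylating oxidase, read 10.98, 11.41, 11.13 and 11.58 in control, 11.49 to 12.13 with TGFb1 alone, and 12.76, 12.44 and 12.47 with both agents. Control and TGFb1 arrays overlapped below the combined ones, and the rise was 1.28 ± 0.163 (adjusted p = 3.79e-05). HMGCS1, which makes HMG-CoA for cholesterol synthesis, rose by 1.20 ± 0.247, FDPS, farnesyl diphosphate synthase, by 1.20 and INSIG1, a sterol-regulated retention protein, by 1.12. SCD, the stearoyl-CoA desaturase, differed by -0.09 and did not pass.

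Of 42 tested lysosomal genes 14 rose (33.3%) and 6 fell (14.3%), where 16.9% and 19.8% of all tested genes did. The falls were thus below the share of all tested genes. Without valproate replicate 1, 9 members rose. CTSH, a cathepsin, rose by 1.37 ± 0.0928 and FUCA1, a fucosidase, by 0.92, while CTSS, cathepsin S, fell by 1.17. CTSS read 8.59 on control array 4, above the other control arrays. Without the probe sets whose names end in _x_at its difference was -0.66 and did not pass (adjusted p = 0.0501). Of 44 ribosome biogenesis genes 0 rose and 19 fell, and 31 fell without both replicates 4. DKC1, the dyskerin pseudouridine synthase, fell by 0.60 ± 0.124, and POLR1A, the large RNA polymerase I subunit, fell by 0.59. ATF5, a bZIP factor of the amino acid response, read 10.47, 10.34, 10.45 and 10.21 in control, 9.98 to 10.25 with TGFb1 alone, and 8.75, 8.65 and 8.89 with both agents, below all other arrays. It fell by 1.61 ± 0.0906 (adjusted p = 2.52e-08). Of 34 tested genes of that response 5 fell and 0 rose. The 14.7% that fell was below the 19.8% of all tested genes. The falls numbered 18 without both replicates 4 and 3 without valproate replicate 1.

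Of 26 heat shock genes 5 rose and 5 fell, shares near those of all tested genes, 16.9% and 19.8%. Leaving out each array in turn 2 to 4 fell, and 9 fell without both replicates 4. HSPB8, a small heat shock protein, rose by 1.65 ± 0.177. Of 31 genes of endoplasmic reticulum folding and degradation 9 rose and 1 fell, and 17 rose without both replicates 4. Of 23 NRF2 target and thiol genes 5 rose and 5 fell, also near the shares of all genes. Without both replicates 4, 12 of them rose, and without control replicate 4 or valproate replicate 2 or 3, 3 fell. Among 45 nuclear-encoded oxidative phosphorylation genes 4 rose (8.89%) and 1 fell (2.22%), both below the shares of all tested genes. In that list 2 rose without valproate replicate 1. Of 32 hypoxia and glycolysis genes 11 rose (34.4%) and 6 fell (18.8%), the falls near the share of all tested genes. PFKFB3, a regulator of glycolysis, rose by 1.45.

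**Figure D4:**
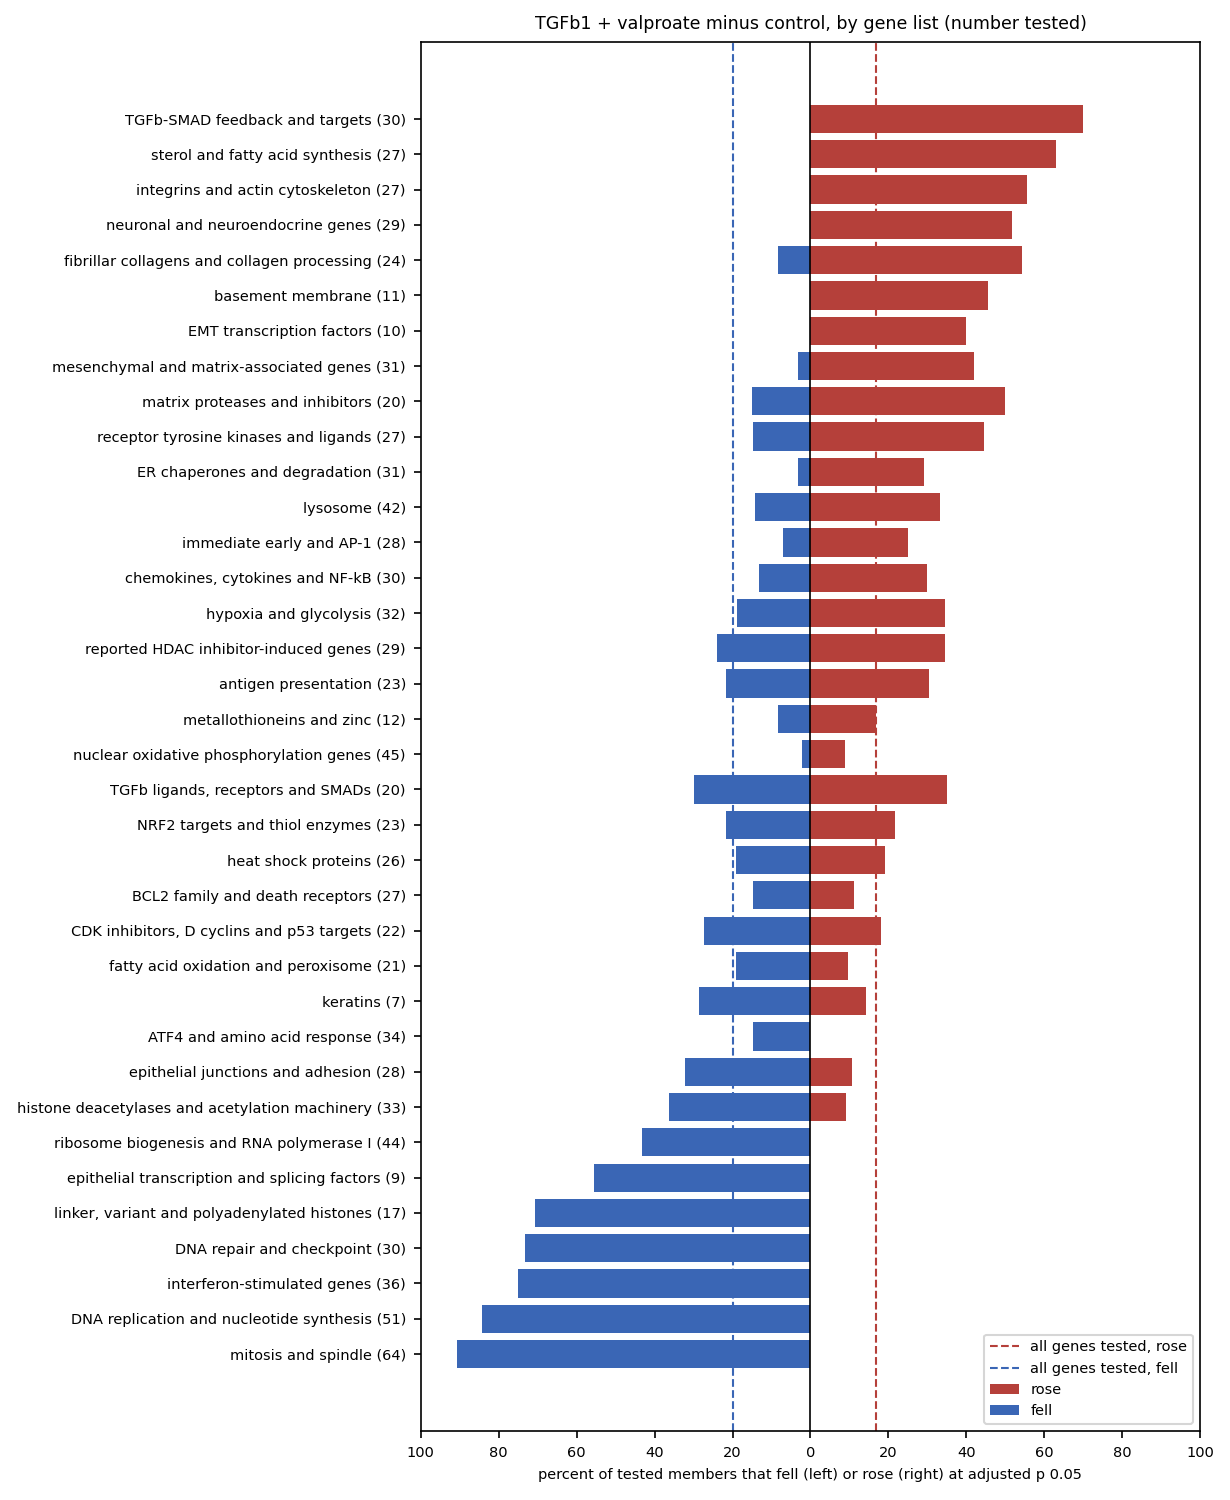
Percent of the tested members of each gene list that rose (right, red) or fell (left, blue) with TGFb1 and valproate against control, with the number tested in brackets. Dashed lines give the same shares over all tested genes, 16.9% and 19.8%. The mitosis list has 58 of 64 members on the left, and SMAD feedback and target genes have 21 of 30 on the right.

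Markers of other cell types were mostly below the brightness limit. Of the measured markers, 1 of 6 acinar, 0 of 4 islet, 2 of 9 leukocyte, 1 of 7 endothelial, 2 of 9 fibroblast and stellate and 2 of 7 hepatocyte genes were bright enough to test. The endothelial mean over all 7 measured markers was 5.90 to 6.17 on the control arrays and 6.35 to 6.48 on the valproate arrays. The fibroblast and stellate mean was 5.44 to 5.46 and 5.73 to 5.83, and its tested members did not pass. ESAM, an endothelial junction protein, was the only tested marker within the endothelial mean and rose by 2.74 ± 0.278. That mean thus does not show a rise across its list. The leukocyte markers LAPTM5 and CD68 rose by 0.83 and 0.47. The part of such cells in the results was not tested.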

How the data were processed

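The deposited table holds log2 intensities of 49193 Affymetrix probe sets, made by the authors with RMA in affy 1.44.0, per the submitters' processing notes; which arrays were normalised together is not given in the sources used here. Values ran from 2.97 to 15.08 with 0 missing. Gene names came from the platform annotation, and 44898 probe sets named 1 gene, 1825 several and 2470 none. For each of 18129 genes the probe set with the highest mean was used. The dimmest 40% of genes were left out, so 10877 genes with a mean of at least 6.89 were tested, which can hide changes of dim genes. RMA compresses differences near background.

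limma 3.58.1 in R 4.3.3 fitted a mean for each of the 4 groups over all 14 arrays (lmFit, eBayes), so that the groups share the estimate of the spread, with Benjamini-Hochberg adjustment over all tested genes. "Rose" and "fell" mean an adjusted p below 0.05. A fold is 2 to the power of the log2 difference. The number of arrays limits the precision. In data simulated for TGFb1 with valproate against control over 10877 genes, 100 genes were given a change of each size. The test recovered 91% of changes of 1 log2 unit and 42% of changes of 0.5. Far more genes, 3992, passed in the measured data. The adjustment depends on how many genes change, so these shares need not hold there.

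Members and gene lists were chosen with earlier results of these data known. Named genes were the 12 largest rises and falls against control without overlap of the arrays, the 10 and 10 that also differed most from TGFb1 alone, the 10 and 10 that did not differ from it, the 8 and 8 that TGFb1 moved and valproate moved back, up to 4 that passed and 1 that did not per list, and a short marker list. Genes outside this rule are named as such in the text.

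Deviations of arrays with the same replicate number correlated at -0.328, -0.291 and -0.491 between the valproate and control groups. Arrays of these groups with the same number thus did not deviate together, which does not show whether the samples were prepared as pairs. For TGFb1 against control the deviations correlated at 0.387, 0.359, 0.543 and 0.705. The fit of all arrays used no pairing, so the counts for TGFb1 alone are unpaired except where the replicate block is named. Alternatives were other brightness limits, probe set rules, scalings, thresholds, variance settings, the 2 groups alone, the replicate block, and leaving out arrays. Promoter sequences came from the RefSeq table of GRCh38.p14, and IFIT2 and UBE2C were not matched there. Figures used matplotlib 3.10.9 in Python 3.11.15.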

Additional observations from a re-analysis of the deposited data

Results flagged for a closer look

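Of the named genes and list means, 173 values were examined in the control group for an array far from the other 3, by the gap to its nearest neighbour over the group's range, a rule that chance meets in about 1 in 20 groups. This picked out 21 values, 19 of them on control array 4. That array was above the other 3 for TSPAN8 (10.39), PTX3 (12.31), MMP7 (8.52), IFIT1 (10.81), HLA-F (9.91), C3 (9.19), CCL20 (9.72), CTSS (8.59), ITGA2 (10.18) and TGFBR3 (8.66). It was below them for TGFB1 (7.73), TNNC1 (7.30), COL1A1 (7.85) and PLK1 (7.80). Its list means were above the others for fibrillar collagens (9.43), matrix proteases (9.72), antigen presentation (10.06), chemokines, cytokines and NF-kB (9.98) and lysosome (10.36). On control array 2, LCN2 read 8.95, below the others, and the mean of the heat shock proteins, 10.85, was below them too. What sets control array 4 apart was not tested.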

How the results depend on the processing

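Of 238 named genes tested, 181 passed against control. With the stricter thresholds aside, 115 of these had a value under every alternative, and 102 of the 115 passed under all of them. The other 66 were left out under at least 1 alternative by its filter or probe set rule, and 63 of them passed wherever they had a value. The counts for TGFb1 with valproate against control ran from 1438 to 1910 genes that rose and from 1626 to 2080 that fell when each array was left out in turn. Against TGFb1 alone these ranges were 1228 to 2215 and 1299 to 2182, and for TGFb1 alone against control 637 to 1317 and 750 to 1832. With the dimmest 60% left out, and so fewer genes tested, 1189 rose against control and 1028 against TGFb1 alone. At an adjusted p of 0.01, 1407 fell against control, 1066 rose and 1133 fell against TGFb1 alone, and 486 rose and 565 fell with TGFb1 alone. Differences of at least 2-fold numbered 408 and 230 against control, 268 and 177 against TGFb1 alone, and 136 and 144 for TGFb1 alone against control. Fitted on the 2 groups compared, 1139 fell against TGFb1 alone, and 453 rose and 510 fell with TGFb1 alone. With the replicate block, 2347 rose and 2641 fell for TGFb1 with valproate against control. For TGFb1 alone against control 1432 rose and 1716 fell with that block. Without both replicates 4, 2627 genes rose against TGFb1 alone, and 1385 rose and 1770 fell with TGFb1 alone; the cause was not tested. C3 changed sign without both replicates 4, to 0.35 (adjusted p = 0.0182). In a fit of the 2 groups without control replicate 4, chosen after seeing the data, C3 was also 0.35 (adjusted p = 0.0172), and 22 named genes that did not pass against control in the fit of all arrays passed, among them CCL20, CXCL5, BST2, CCL2, PLK1 and KRT19. Scaling by median, quantile or cyclic loess moved the median of all genes by 0.0095, 0.0233 and 0.0382, and the share of rises among calls from 46.1% to at most 50.6%.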
